A study of Homo sapiens with 12 samples.

Results

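The KRT23 locus on chromosome 17 was followed by RNA-seq of 12 samples from Huh-7.5, a human cell line of hepatocellular carcinoma. It is represented by 2 of the 61255 rows of the count table: KRT23 itself and ENSG00000234477, a gene annotated on the opposite strand of KRT23. The second row was chosen by its high counts in the 4 libraries of the G3BP1 line, so its difference between that line and the other two is given below as a description, with no test. The label of the locus comes from KRT23, but the KRT23 row held 5 reads in all 12 libraries and the opposite-strand row held 364. The values below are therefore named by row.

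All cells carried APEX2, an engineered peroxidase that tags molecules near it, in 1 of 3 forms. In such names NES usually stands for a signal for export from the nucleus and NLS for one that brings a protein into it. APEX-G3BP1 is joined to G3BP1, a core protein of stress granules. Each line was given a mock treatment or 0.5 mM sodium arsenite for 45 minutes, which gives 6 groups of 2 libraries. Arsenite causes oxidative stress, halts translation and makes stress granules form. No library of cells without APEX2 was used here. Whether a line is 1 clone or a pool, and what promoter drives the APEX2 construct, is not given in the sources used here, so the construct and any other property of a line cannot be told apart. Nothing in the labels says that the 2 replicates of a group are separate cultures, so the p-values measure the spread between these libraries, which may be technical.

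Keratins are the intermediate filament proteins of epithelial cells. A filament is built from pairs of an acidic type I and a basic type II keratin, and the pair of simple epithelia, including hepatocytes, is KRT18 with KRT8. KRT23 is a type I keratin that most healthy hepatocytes make little of, and it has been described in the ductular cells of diseased liver and in several carcinomas. An antisense gene is transcribed from the strand opposite to another gene, so that its RNA is complementary to the other gene's RNA wherever their exons overlap.

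In the GENCODE 29 annotation of build GRCh38, KRT23 (ENSG00000108244) is a protein-coding gene on the minus strand at chr17:40922696-40937634, with 9 exons. ENSG00000234477 is annotated on the plus strand at chr17:40921430-40975926 as an antisense gene with 4 exons and 815 exon bases. Its exon 1 is a 60-base exon downstream of the KRT23 end, exons 2 and 3 lie inside KRT23, and exon 4 lies 37.863 kb upstream of the KRT23 start. Exon 4 holds 52.8% of the exon bases. Exons 2 and 3 share 186 bases with KRT23 exons, all of them coding sequence. This overlap is 22.8% of the ENSG00000234477 exon bases and 9.36% of the 1987 bases of the 9-exon KRT23 transcript, which leaves 629 exon bases of ENSG00000234477 outside KRT23 exons.

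Both overlapping exons are shown because they are where a read could belong to either row. The letters are the plus strand of GRCh38, 5′ to 3′, with the bases inside KRT23 exons in capitals and the bases inside KRT23 introns in lower case. Exon 2 is at chr17:40928259-40928424 and overlaps KRT23 exon 6 by 102 bases. Exon 3 is at chr17:40928524-40928682 and overlaps KRT23 exon 5 by 84 bases.
ENSG00000234477 exon 2: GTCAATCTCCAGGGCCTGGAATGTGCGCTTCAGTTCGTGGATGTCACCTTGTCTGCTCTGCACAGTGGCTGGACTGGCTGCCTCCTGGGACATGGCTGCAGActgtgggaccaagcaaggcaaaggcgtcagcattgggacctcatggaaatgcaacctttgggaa
ENSG00000234477 exon 3: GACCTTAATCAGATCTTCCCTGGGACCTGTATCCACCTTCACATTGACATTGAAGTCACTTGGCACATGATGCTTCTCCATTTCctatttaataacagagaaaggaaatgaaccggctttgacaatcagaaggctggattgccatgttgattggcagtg

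On the KRT23 strand the same overlaps read as follows, 5′ to 3′ and all in lower case. They are bases 1224 to 1325 and 1062 to 1145 of that transcript, counted from 1 at its 5′ end. Their GC content is 58.8% and 45.2%.
KRT23 exon 6 overlap: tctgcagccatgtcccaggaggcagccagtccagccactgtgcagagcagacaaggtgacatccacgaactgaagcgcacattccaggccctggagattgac
KRT23 exon 5 overlap: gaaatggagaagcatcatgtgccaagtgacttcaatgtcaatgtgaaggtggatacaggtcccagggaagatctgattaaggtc

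**Figure D1:**
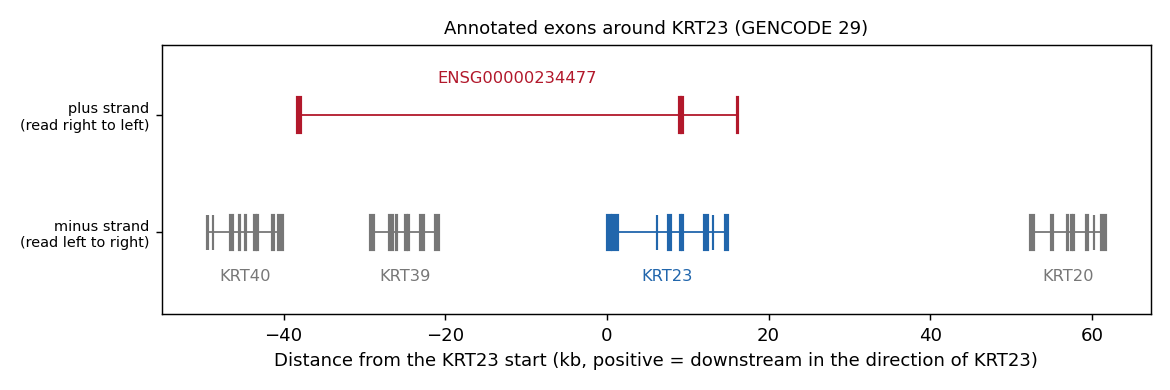
Annotated exons around KRT23 on the 2 strands, plotted against the distance from the KRT23 start in kb, with positive values downstream in the direction of KRT23. Boxes are exons and lines join the exons of a gene. The second and the third exon of ENSG00000234477 fall inside KRT23, and the fourth lies 37.863 kb upstream of the KRT23 start.

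The libraries held 1090308 to 1461067 counted reads. A count of 0 in a library allows up to 3 reads, which is 2.02 to 2.81 CPM (counts scaled to library size, here with the TMM factors of edgeR). This limit, like the counting intervals below, covers counting error only. Of all rows, 13108 passed the filter on low counts and were tested. The library kit keeps the strand of the RNA, but how the counting treated strand is not given in the sources used here. Among annotated pairs of a protein-coding and an overlapping antisense row with a mean of at least 20 counts in either row, the antisense row had more reads in 1524 of 2062 pairs, or 73.9%. In 49.5% of these pairs it had at least 10 times as many, and at the KRT23 locus it had 72.8 times as many. Whether the reads of ENSG00000234477 came from its own RNA or from KRT23 RNA cannot be told from these counts. The strand setting bears on every row, so this limit holds for all gene rows, also those with no row annotated opposite to them. Few or 0 reads in a gene row do not show that the gene is silent. Reads in a gene row may likewise come from the other strand.

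ENSG00000234477 was high in the G3BP1 line, low in the NES line and close to the limit of detection in the NLS line. Its counts in the mock libraries were 68 and 61 in the G3BP1 line, 7 and 8 in the NES line, and 0 and 2 in the NLS line. After arsenite they were 92 and 92 in the G3BP1 line, 13 and 11 in the NES line, and 7 and 3 in the NLS line. Every G3BP1 library was above every other library, whether mock or arsenite treated, and the NES and NLS lines overlapped only between NES mock and NLS arsenite. In these bulk libraries, fewer cells that carry the RNA and less RNA per cell cannot be told apart.

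Scaled to depth, the ENSG00000234477 level in the G3BP1 line was 59.1 ± 6.40 CPM in mock cells and 73.8 ± 4.02 CPM after arsenite (mean ± SD, n = 2 each). In the NES line it was 5.52 ± 0.718 CPM and then 9.25 ± 0.272 CPM. In the NLS line it was 0.743 ± 1.05 CPM and then 3.59 ± 2.22 CPM. The 6 group means thus ran, from the highest, G3BP1 arsenite, G3BP1 mock, NES arsenite, NES mock, NLS arsenite and NLS mock. NES mock and NLS arsenite are neighbours in that order whose libraries overlapped, at 5.01 and 6.03 CPM against 5.16 and 2.02 CPM. The arsenite and mock groups of each line are the other close neighbours, and none of these 3 differences passed its test, as given below.

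Over both treatments the mean of ENSG00000234477 was 66.4 ± 9.56 CPM in the G3BP1 line, 7.38 ± 2.19 CPM in NES cells and 2.17 ± 2.17 CPM in NLS cells (mean ± SD, n = 4 each). From the pooled counts, the G3BP1 level was 9.12 times the NES level and 30.7 times the NLS level. No interval is given for these ratios, since the row was picked for this difference. The fitted difference of the G3BP1 line from the mean of the other lines was 4.21 on the log2 scale, first of the 13108 tested rows. In that comparison 29.5% of all tested rows were called at an edgeR adjusted p under 0.05 (15.7% higher, 13.8% lower), and nothing is read from this for ENSG00000234477, which was picked for this difference. Without replicate 2 of the NLS mock group, which holds the 2 mock NLS reads, the fitted difference was 4.99, since that group then had a count of 0.

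**Figure D2:**
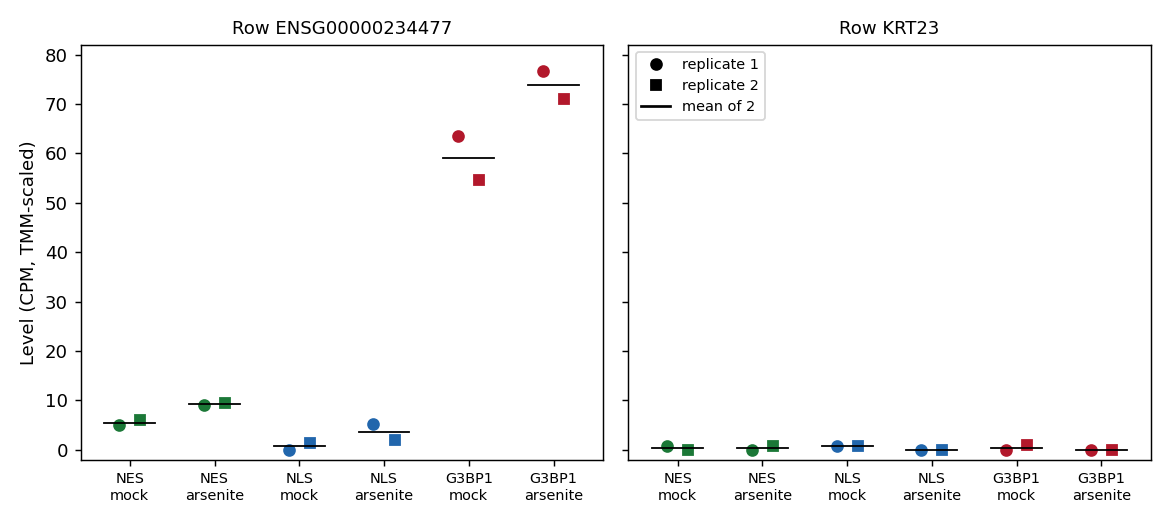
Level of ENSG00000234477 and of KRT23 in each of the 12 libraries, in CPM on a linear axis, with 1 point per library and a line at the mean of each group of 2. The G3BP1 libraries sit between 54.5 and 76.6 CPM in the ENSG00000234477 panel, above all others, and no KRT23 value exceeds 0.894 CPM.

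KRT23 itself was at 0 or 1 read in every library. A single read was found in 1 NES mock, 1 NES arsenite, both NLS mock and 1 G3BP1 mock library, and the other 7 libraries had 0. The mean over all 12 libraries was 0.331 CPM, which per kilobase of exon is 0.114 for KRT23 against 31.1 for ENSG00000234477. The G3BP1 line, where ENSG00000234477 is high, held 1 of the 5 KRT23 reads. KRT23 missed the filter on low counts. Fitted without that filter, its average arsenite effect was -1.48 on the log2 scale (SE 1.47, edgeR adjusted p = 0.698), and no difference between groups was detectable at this depth.

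The line difference that the choice of the row did not use is the one between NLS and NES. ENSG00000234477 was lower in the NLS line than in the NES line, by -2.05 on the log2 scale over both treatments (SE 0.474, edgeR adjusted p = 0.000593). The pooled NES level was 3.36 times the NLS level, with a 95% counting interval of 1.72 to 7.05. The call held under all 18 alternative settings, with adjusted p between 0.000292 and 0.0239. The size rests on few reads, since it was -3.61 without replicate 2 of the NLS mock group and -1.59 without replicate 1. Of all tested rows, 12.3% were called in this comparison and 6.79% were called lower in NLS.

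The values of ENSG00000234477 were higher after arsenite in each line, but in no single line did the difference pass the test. The log2 change was 0.32 in the G3BP1 line (SE 0.192, edgeR adjusted p = 0.270), 0.73 in the NES line (SE 0.460, adjusted p = 0.278) and 2.10 in the NLS line (SE 0.887, adjusted p = 0.0913). In each line both arsenite libraries lay above both mock libraries. In the NLS line this rests on 3 reads (2.02 CPM) against 2 reads (1.49 CPM), within the 3 reads that a count of 0 allows. How many of all tested rows show such an order was not counted. From pooled counts, arsenite over mock was 1.25 in the G3BP1 line (95% counting interval 0.992 to 1.58), 1.67 in the NES line (0.843 to 3.43) and 4.70 in the NLS line (1.002 to 44.1). The share of all tested rows called was 16.3% in the G3BP1 line, 20.3% in the NES line and 17.8% in the NLS line.

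In a model with 1 arsenite effect common to the 3 lines, that effect on ENSG00000234477 was 0.45 on the log2 scale (SE 0.181, edgeR adjusted p = 0.0375). This common effect, named the average arsenite effect here, is not the mean of the 3 line values. Lines with more reads weigh more in it, and the G3BP1 line held 313 of the 364 reads. Of all tested rows, 38.0% were called for it, 19.4% higher and 18.6% lower. The call was lost in 12 of 18 alternative settings. It was lost without any 1 of 8 of the libraries, with adjusted p up to 0.0974, and held without NES mock replicate 2, NLS arsenite replicate 2, G3BP1 mock replicate 1 or G3BP1 arsenite replicate 2. The arsenite effect in the G3BP1 line minus the mean of the other lines was -1.09 (SE 0.538, adjusted p = 0.582), a test that 0.153% of all rows passed. The NLS change of 2.10 was 5.22 without NLS mock replicate 2, 1.18 without NLS mock replicate 1 and 1.32 without NLS arsenite replicate 1. The difference between lines went from -1.09 to -2.67 without NLS mock replicate 2 and to -0.65 without NLS mock replicate 1.

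**Figure D3:**
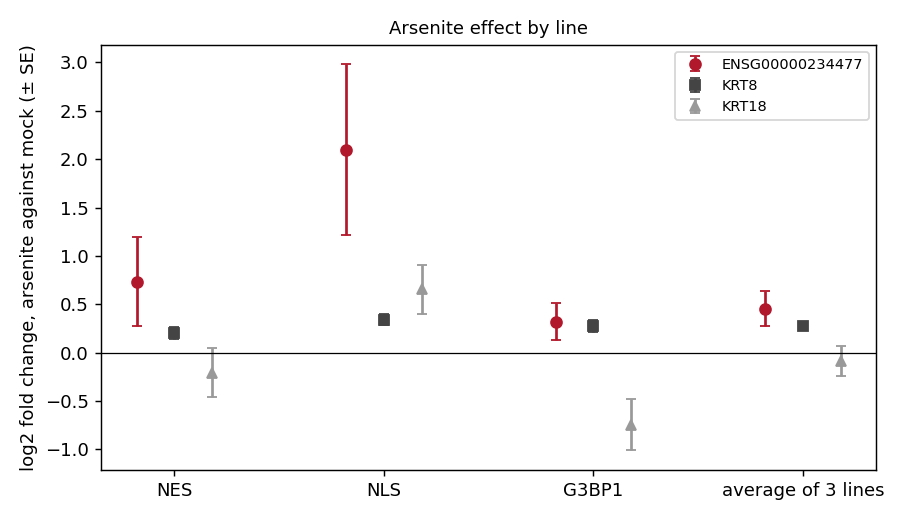
Arsenite effect (log2 fold change against mock, with bars of 1 SE) on ENSG00000234477, KRT8 and KRT18 in each line and as 1 effect common to the lines. The common effect is labelled as an average but is not the mean of the line values. The ENSG00000234477 points are above 0 throughout, from 0.32 to 2.10, with bars wider than those of KRT8 in every line.

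The rest of the keratin family was mostly unread. Of the other 54 keratin rows, 38 had no read in any library, 11 had 1 to 9 reads in all, 2 had 10 to 59, and 3 had more. KRT23 was 8th by total. The 3 that were tested are KRT8, KRT18 and KRT10, the last a keratin of the upper epidermis. For the average arsenite effect, 1 of these 3 was called (KRT8, higher) and none lower, near the 38.0% called over all tested rows. The median log2 change was 0.11 beside -0.01 over all tested rows.

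KRT8, the type II partner of KRT18, was by far the most abundant keratin row, at 3691 to 8107 reads per library. Its mock level was 4967 ± 128 CPM in the G3BP1 line, 4226 ± 47.1 CPM in the NES line and 2915 ± 179 CPM in the NLS line (SD, n = 2 each). After arsenite the same lines had 6010 ± 340, 4868 ± 179 and 3692 ± 276 CPM. The lines do not overlap in the mock groups, and within each line both arsenite libraries were above both mock libraries.

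KRT8 rose with arsenite by 0.28 on the log2 scale in the G3BP1 line (SE 0.0593, edgeR adjusted p = 0.000187), by 0.20 in the NES line (adjusted p = 0.00657) and by 0.34 in the NLS line (adjusted p = 3.98e-06). It was lower in NLS than in NES by -0.47 (SE 0.0424, adjusted p = 2.15e-19) and higher in the G3BP1 line than in the mean of the other lines by 0.50 (SE 0.0359, adjusted p = 4.24e-28). These KRT8 calls held in every alternative setting run, except that the NES call was lost without NES mock replicate 1 (adjusted p = 0.0639) or NES arsenite replicate 2 (0.0521). Its order of lines is the order found for ENSG00000234477, with smaller steps. Exons of KRT8 and KRT18 overlap on opposite strands, so their counts share the limit described for the KRT23 locus.

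KRT18 was counted at 24 to 59 reads, far below its partner. Its average arsenite effect was -0.09 (edgeR adjusted p = 0.704), and its values went opposite ways in the NLS and G3BP1 lines. In the NLS line it had 24 and 32 reads in mock and 35 and 59 after arsenite, a log2 change of 0.65 (adjusted p = 0.0594). In the G3BP1 line KRT18 was lower after arsenite, with 42 and 39 reads in mock and 26 and 29 after arsenite, a log2 change of -0.75 (SE 0.263, adjusted p = 0.0356). This call did not hold with DESeq2 (adjusted p = 0.248), without the filter on low counts (0.0910), with a mean of at least 1 CPM (0.0501), or without any 1 of the 4 G3BP1 libraries (0.0865 to 0.206). KRT10 passed none of these tests.

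Gene rows around KRT23 were almost unread. Within 100 kb lie 13 other rows, which include the type I keratins KRT12, KRT20, KRT39 and KRT40 and the hair keratin-associated KRTAP genes. None passed the filter, 4 had no read at all, and the highest, KRT12, had 38 reads over 12 libraries. KRT39, which lies within the span of ENSG00000234477 on the KRT23 strand, had 8.

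A window of 1 Mb on either side, chosen after earlier values were seen, held 137 other rows, of which 18 were tested. In the comparison of the G3BP1 line with the others, 1 was called higher and 2 lower, or 16.7% of those tested beside 29.5% of all tested rows. Their median was 0.20, beside -0.01 over all tested rows. ENSG00000274630, an antisense row, was higher by 0.37, NR1D1, a nuclear receptor of the circadian clock, was lower by -1.01, and FKBP10, a collagen chaperone, was lower by -1.07. The FKBP10 call was lost without G3BP1 mock replicate 2 (edgeR adjusted p = 0.0634). Over the whole of chromosome 17, 157 of 797 tested rows were called higher and 97 lower, with a median of 0.06. The shares over all tested rows were 15.7% higher and 13.8% lower.

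**Figure D4:**
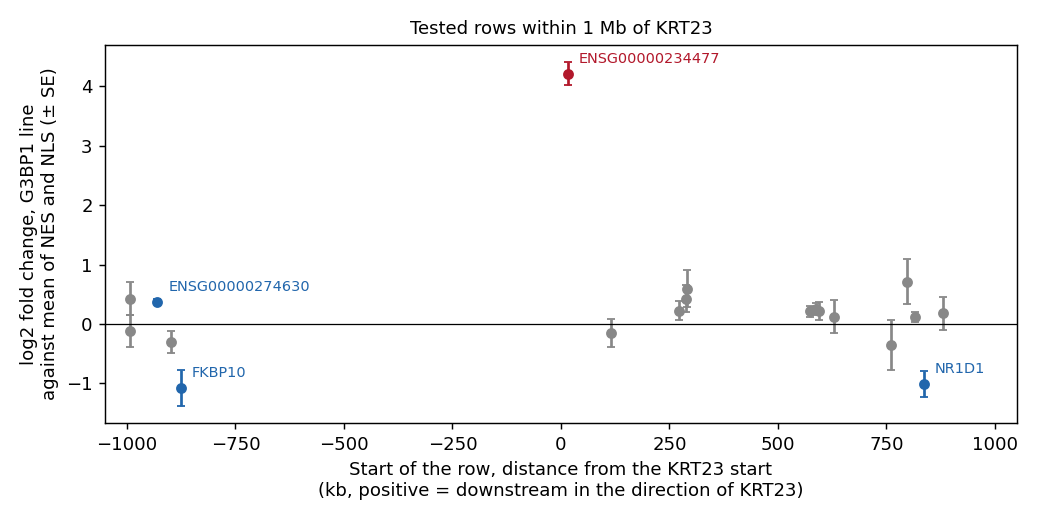
Difference between the G3BP1 line and the average of both other lines (log2, with bars of 1 SE) for ENSG00000234477 and the 18 other tested rows within 1 Mb, against the distance of their start from the KRT23 start in kb. ENSG00000234477 is at 4.21, and the others lie between -1.07 and 0.71.

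Other antisense rows differed in both directions, more often higher in the G3BP1 line. Of 1868 other tested antisense rows that overlap exons of a protein-coding gene, 468 were called higher and 308 lower in that line. Both are larger shares than the 15.7% and 13.8% of all tested rows, and the excess is greater for higher rows. The split by direction depends on the scaling. With total counts, 1444 of all tested rows were called higher and 2651 lower, in place of 2062 and 1803. The antisense rows were not counted under that setting. The median log2 difference of the antisense rows was 0.04. The differences ran from -5.18 to 2.997, the highest being that of ENSG00000257764.

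Genes that work with keratins were next examined by list. Desmosomes and plakins tie keratin filaments to the cell border and to each other. Of 19 such rows, 6 were tested, none was called higher and 3 were called lower on average with arsenite, beside 19.4% and 18.6% of all tested rows, with a median of -0.10. PLEC, which encodes the linker plectin, fell by 0.69 on the log2 scale (edgeR adjusted p = 0.00193). EPPK1, epiplakin, changed by -1.09 (adjusted p = 0.00771), but not without NLS arsenite replicate 2 (0.0556). PPL, periplakin, fell by 0.25 (adjusted p = 0.0253), a call lost with DESeq2 (0.0874), without the filter (0.0567), and without NES mock replicate 2, NLS mock replicate 2 or NLS arsenite replicate 1 (0.0724, 0.0725 and 0.139). None of the 6 was called in the G3BP1 line against the others, beside 29.5% of all tested rows.

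KRT23 has been described in ductular cells, so biliary and progenitor markers were read beside it. Of 14 rows, 5 were tested and none was called on average with arsenite or in the G3BP1 line against the others. Over all tested rows, 38.0% and 29.5% were called, and 5 rows are few to set against these shares. The median was 0.18 in the second comparison. The summed level of the 14 rows was 50.1 to 68.3 CPM in the G3BP1 line, 39.7 to 52.8 CPM in NES and 55.9 to 66.7 CPM in NLS. KRT7 was at 0 in all 12 libraries. Beside 15.7% of all tested rows, both tested rows opposite to these genes were called higher in the G3BP1 line. They were CTTNBP2, by 2.04, and ENSG00000283480, by 0.71.

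Part of the hepatocyte marker rows were higher in the G3BP1 line. Several hold few reads, with ALB at 11 to 29 per library, FGB at 13 to 76 and AFP at 25 to 95. The limit on strand holds for these rows too, so a call may not be of the gene's own RNA. Of 16 rows 10 were tested, and 5 were called higher in the G3BP1 line and none lower, beside 15.7% and 13.8% of all tested rows, with a median of 0.38. In NLS against NES, 1 was called lower and none higher, with a median of 0.06. Of all tested rows, 12.3% were called in that comparison and 6.79% were called lower. The rows called higher in the G3BP1 line include AFP, the fetal albumin-like protein (1.15, edgeR adjusted p = 1.38e-12), and ALB (0.62, adjusted p = 0.00859). APOB (0.75, adjusted p = 2.71e-13) and APOA1 (0.59, adjusted p = 0.00783), both apolipoproteins, were also called. The last is FGB, a fibrinogen chain (0.43, adjusted p = 0.0329).

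The summed level of the 16 hepatocyte rows was 342 to 415 CPM in the G3BP1 line, 236 to 300 CPM in NES and 223 to 310 CPM in NLS, and APOH was at 0 throughout. The G3BP1 range does not overlap the other two. The DESeq2 test called neither ALB, APOA1 nor FGB (adjusted p = 0.108, 0.104 and 0.172). ALB was also not called without G3BP1 mock replicate 1 (0.0562). FGB was also not called with total counts, without the filter, or without 6 of the 12 libraries taken singly (adjusted p up to 0.184). Those were NES mock replicate 2, NES arsenite replicate 2, NLS mock replicate 1, both G3BP1 mock libraries and G3BP1 arsenite replicate 1. The part of these markers in the level of ENSG00000234477 was not tested.

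At 2 of these hepatocyte genes most reads also sat in the opposite-strand row. APOA1 had 16 to 39 reads per library and APOA1-AS, its opposite row, 2406 to 4711. APOB had 77 to 145 and ENSG00000280390, opposite to it, 2211 to 3432. Both opposite rows were called higher in the G3BP1 line, by 0.57 and 0.37 on the log2 scale, and higher on average with arsenite, by 0.25 and 0.19. Over all tested rows, 15.7% and 19.4% were called higher in these comparisons.

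Rows for markers of other cell types had low levels in all lines, which does not show that the genes were silent, given the limit on strand. The 8 rows, which mark fibroblasts, muscle, leukocytes, macrophages and endothelium, summed to 38.4 to 71.6 CPM in the G3BP1 line, 39.4 to 68.9 CPM in NES and 32.7 to 53.9 CPM in NLS, with DES and VWF at 0. Beside 15.7% of all tested rows, 1 of the 3 tested here was called higher in the G3BP1 line. It was PECAM1, at 0 to 14 reads per library (1.36, edgeR adjusted p = 0.00723), a call lost with DESeq2 (0.0723) and without G3BP1 mock replicate 2 (0.267) or G3BP1 arsenite replicate 1 (0.174).

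Transcription and chromatin regulators that act on keratin genes were the last list. Of 15 rows, 5 were tested, and 3 rose on average with arsenite and none fell, beside 19.4% and 18.6% of all tested rows, with a median of 1.16. JUN and JUNB, immediate early AP-1 factors, rose by 2.54 (edgeR adjusted p = 1.06e-07) and 1.77 (adjusted p = 0.000475), over ranges of 0 to 18 and 1 to 18 reads per library. HDAC1, a histone deacetylase, rose by 1.16 (adjusted p = 2.06e-20). In the G3BP1 line against the others, NFE2L2, the oxidative stress factor NRF2, was higher by 0.25 (adjusted p = 4.41e-09). HDAC1 was higher there by 0.25 (adjusted p = 0.0453), a call lost with total counts, without the filter, with a mean of at least 1 CPM, with DESeq2 (0.207), and without any 1 library other than NLS arsenite replicate 2 (0.0534 to 0.158).

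The rows most alike to ENSG00000234477 were taken as the 8 with the highest Pearson correlation of log2 CPM over the 12 libraries, among 13107 other tested rows. They are ENSG00000279160 (r = 0.992), ENSG00000255959 (0.990), PCSK7 (0.987), NRAP (0.985), KIN (0.981), PLBD1-AS1 (0.980), NAXE (0.980) and ENSG00000264324 (0.977). Here r is a description, since the 12 libraries share 3 lines and a row that differs by line correlates with any other that does. In all, 196 rows had r of at least 0.9 and 83 had r of at most -0.9. By Spearman's rho, 2 of these 8 rows would also be among the 8 most alike.

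These rows lie on chromosomes 1, 2, 10, 11 and 12, none on 17. Among the 8, 6 lie opposite to exons of another row. The share of all tested rows that lie so was not counted, so nothing is read from this. ENSG00000279160 is opposite to HOXD1, ENSG00000255959 to CCDC86, PCSK7 to TAGLN, NRAP to HABP2, PLBD1-AS1 to GUCY2C and PLBD1, and ENSG00000264324 to MTHFD2. In each of the 8 the lowest G3BP1 library was above the highest other library, which the choice by correlation favours. How many of all tested rows show this was not counted. The ratio of the G3BP1 mean to the mean of the other 8 libraries was 13.9 for ENSG00000234477, against 5.26 for ENSG00000279160, 4.97 for NRAP, 3.06 for PCSK7 and 1.61 to 2.72 for the other 5. Within the 8 NES and NLS libraries alone, r was 0.862 to 0.964, but these libraries also entered the choice of the 8 rows.

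ENSG00000279160, the most alike, averaged 42.5 ± 7.03 CPM in G3BP1 cells, 10.6 ± 2.67 CPM in NES cells and 5.62 ± 2.25 CPM in NLS cells (± SD, n = 4 each). NRAP, named for a muscle anchoring protein, had 72.5 ± 6.26, 17.7 ± 3.73 and 11.4 ± 3.65 CPM. PCSK7, a proprotein convertase, had 105 ± 4.92, 41.5 ± 7.38 and 27.4 ± 6.76 CPM. In all of these the lines fall in the order G3BP1, NES, NLS by mean, an order that the choice by correlation also favours.

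**Figure D5:**
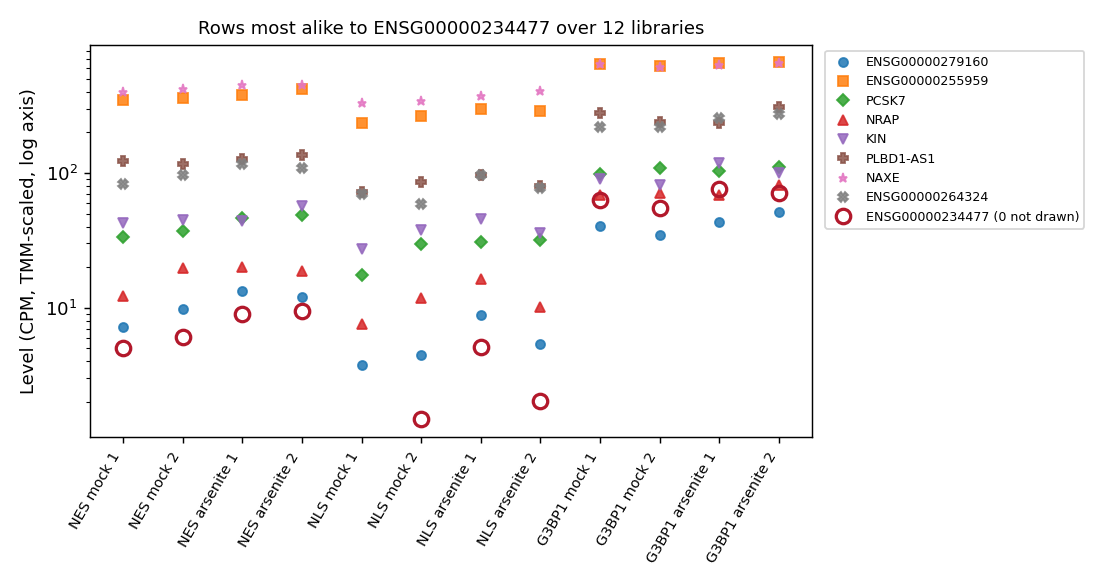
Level of ENSG00000234477 (open circles, its value of 0 left out) and of the 8 rows most alike to it in each library, in CPM on a log axis. All 9 rows are highest in the 4 G3BP1 libraries, which the choice of these rows favours. The drop to the NES and NLS libraries is widest for ENSG00000234477.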

How the data were processed

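RNA of whole Huh-7.5 cells was isolated with Trizol, depleted of ribosomal RNA and made into libraries with the NEBNext Ultra II Directional kit, per the labels' protocols. Per gene, the authors deposited raw counts in 1 table, a unit read from its whole-number values. Trim Galore, Subread, featureCounts, edgeR and build GRCh38.p13 are named in the submitters' processing notes. Their versions, the gene annotation and the strand setting are not given in the sources used here. Of 16 columns, 4 match no sample label and were not used. Library totals were 1090308 to 1461067 counts, and with groups of 2 this depth leaves rows of few reads imprecise.

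Counts were tested with the edgeR quasi-likelihood test (edgeR 4.0.16, R 4.3.3). TMM factors were applied to library sizes over all rows, and filterByExpr kept 13108 rows (minimum count 10, minimum total count 15). An additive model of line and treatment gave the average arsenite effect, which is 1 effect common to the lines. The contrasts came from a model of the 6 group means. Both used all 12 libraries. Benjamini-Hochberg adjusted p-values were taken over all tested rows, and a row was called at an adjusted p under 0.05. The standard error is the log2 fold change divided by the square root of F. The interval of a ratio of pooled counts is the 95% exact conditional binomial one. The code was tested on simulated data. Alternatives were total counts, DESeq2 size factors, DESeq2 1.42.0, no filter, a mean of at least 1 CPM, each line alone, a replicate block, and each library left out. Replicates of every group differed by more than sampling noise.

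Symbols and positions came from GENCODE 29 on GRCh38, which matched 57075 of the 61255 rows. The sequences were cut from the transcripts of that annotation by exon position. Exon numbers follow the direction of each gene. The annotation the authors counted with may differ from it.

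The members and the gene lists were chosen with earlier results of these data known. The rows named are both members, keratin rows and their opposite rows that were called or had a mean of at least 20 counts, up to 6 such rows of each other list and of the rows within 100 kb, and the 8 rows most alike by Pearson correlation (log2 CPM, prior count 2). Rows named outside this rule, for a count at 0 or a window, were chosen after their values were seen.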

Additional observations from a re-analysis of the deposited data

How the results depend on the processing

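The average arsenite effect on ENSG00000234477, 0.45 on the log2 scale, kept its direction in all 18 alternatives and its call in 6. It was 0.39 with total counts (edgeR adjusted p = 0.0783), 0.44 without a filter (0.119), 0.44 when rows needed a mean of 1 CPM (0.0614) and 0.53 with DESeq2 (0.0866). Leaving out 1 library gave 0.40 to 0.58, and 8 of 12 such fits lost the call. No other tested value of ENSG00000234477 or KRT23 changed direction or its side of the threshold in the alternatives run. The fit of the NLS libraries alone gave no value, because the row missed the filter there, and DESeq2 gave KRT23 no adjusted p.

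Rows called in the G3BP1 line against the others numbered 3865, and 2222 with DESeq2. With total counts the median of all rows in that comparison went from -0.01 to -0.11, and the split of 2062 higher and 1803 lower rows became 1444 and 2651. The description of 4.21 for ENSG00000234477 was 3.98 to 4.99 with 1 library left out. Of the 8 rows most alike, 2 were shared with a choice by Spearman's rho.

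Deviations of libraries with the same replicate number correlated at 0.293 between the NES and NLS arsenite groups and between -0.0523 and 0.0341 in the other pairs of groups, over 6392 rows. Not every pair was above 0.1, so the numbers were not taken to pair the libraries; what the NES and NLS arsenite libraries share was not tested. With the replicate block the average arsenite effect was 0.45 (adjusted p = 0.0381), and 3895 rows were called in the G3BP1 line against the others.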

Other observations

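Rows opposite to the keratin regulators also changed. HOOK2, which encodes a microtubule linker and lies opposite to JUNB, rose on average with arsenite by 1.55 on the log2 scale (edgeR adjusted p = 6.23e-18), at 23 to 102 reads per library. In the G3BP1 line against the others, ENSG00000222043 was higher by 0.51 (adjusted p = 1.01e-07) and HDAC2-AS2 by 0.38 (adjusted p = 0.000742), and AGPS, an enzyme of ether lipid synthesis, was lower by -1.09 (adjusted p = 2.35e-07). Among the markers of other cell types, COL3A1, a fibrillar collagen, rose with arsenite by 2.04 (adjusted p = 2.97e-18) over a range of 6 to 70 reads. CD68, a macrophage and lysosome protein, fell by 0.60 (adjusted p = 0.00673).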
